A study of Mus musculus with 5 samples.

Results

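Caveolins, cavins and the caveola accessory proteins EHD2 and PACSIN2 were followed in 5 clones grown from single cells of the mouse osteocytic line Ocy454. The 9 genes were Cav1, Cav2, Cav3, Cavin1 (older name Ptrf), Cavin2 (Sdpr), Cavin3 (Prkcdbp), Cavin4 (Murc), Ehd2 and Pacsin2. They were found by symbol, and each of the 9 was measured by 1 probe set among 23185 named genes. The family was chosen with the contrast between high-Sost and low-Sost clones in view. Its values in that contrast are therefore a description, carry no p-value and support nothing.

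Sost encodes sclerostin, a Wnt inhibitor secreted by osteocytes. The submitters screened 37 clones after 7 days of culture and profiled clones 12H and 15H as high SOST and clones 4L, 9L and 24L as low SOST, with 1 array for each clone. All 5 were untreated, were cultured for 7 days at 37 °C in serum-containing medium, and have no genotype or agent in the labels that sets the groups apart. Each clone descends from 1 sorted cell and has 1 array, so the spread within a group holds clone and culture differences together. Total RNA of a whole culture was measured, so fewer cells making a transcript and less transcript in each cell cannot be told apart.

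Caveolae are flask-shaped pits of the plasma membrane, rich in cholesterol and sphingolipids. Caveolins are hairpin membrane proteins that oligomerize in the inner leaflet, and cavins are cytosolic coiled-coil proteins that assemble over them into the coat. Caveolin-1 and cavin-1 are needed to form caveolae in most cells outside striated muscle, where caveolin-3 takes the role of caveolin-1. Caveolae flatten when the membrane is stretched, which buffers tension, and they are plentiful in endothelium, adipocytes, fibroblasts and muscle.

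Values are log2 expression after robust multi-array averaging (RMA) and compare clones for a gene, not genes with each other. A difference is the high-Sost mean minus the low-Sost mean, and its error is the moderated standard error (SE) of limma. The 95th percentile of 1350 olfactory and vomeronasal receptor genes, read from 3.37 to 3.56 in the 5 clones, served as a mark of dim signal. Sost read 3.92 to 4.08 in the high-Sost and 3.78 to 3.91 in the low-Sost clones. Of the osteocyte markers, Mepe and Fgf23 stayed under the receptor mark in every clone, whereas Dmp1 and Phex exceeded it in both high-Sost clones and in none of the low-Sost clones. Pdpn, an early osteocyte marker, was well above it in every clone and lower in the high-Sost clones, at 8.06 to 8.35 against 8.97 to 9.20 (-0.92, SE 0.13, adjusted p = 0.572 in limma). Clone 4L stood apart in osteoblast markers, whose mean over 6 genes was 5.81 there and 8.65 to 10.35 in the other clones. It also had the most genes at least 2-fold from the median of the other clones (347 above and 484 below).

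The 9 genes had unlike values in the same clones. Cavin2, Cav1, Cavin4 and Ehd2 read lower in the high-Sost clones. Between group means, Cavin2 was lower by at least 8.36-fold, Cav1 by 4.65-fold, Cavin4 by 2.05-fold and Ehd2 by 1.98-fold. Cav2 and Cavin3 were lower by small amounts, and Cavin1, Pacsin2 and Cav3 overlapped between the groups. In all, 6 of the 9 genes were lower in both high-Sost clones than in any low-Sost clone, against 7.75% of all named genes, and 0 were higher in this way, against 8.26%. With a 2-fold difference also asked for, 3 genes were lower (Cav1, Cavin2 and Cavin4), against 0.983% of all genes, and 0 were higher, against 0.867%. Since the family was picked on this contrast, nothing is read from these counts. Cavin4 lay just inside the 2-fold limit with a log2 difference of -1.03 and Ehd2 just outside with -0.99. The median log2 difference was -0.47 over the 9 genes and 0.00 over all named genes. At an adjusted p under 0.05 in limma, 0 genes were called in either direction (0%), the family included. Without adjustment, p lay under 0.05 for 712 genes in the higher and 628 in the lower direction.

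**Figure D1:**
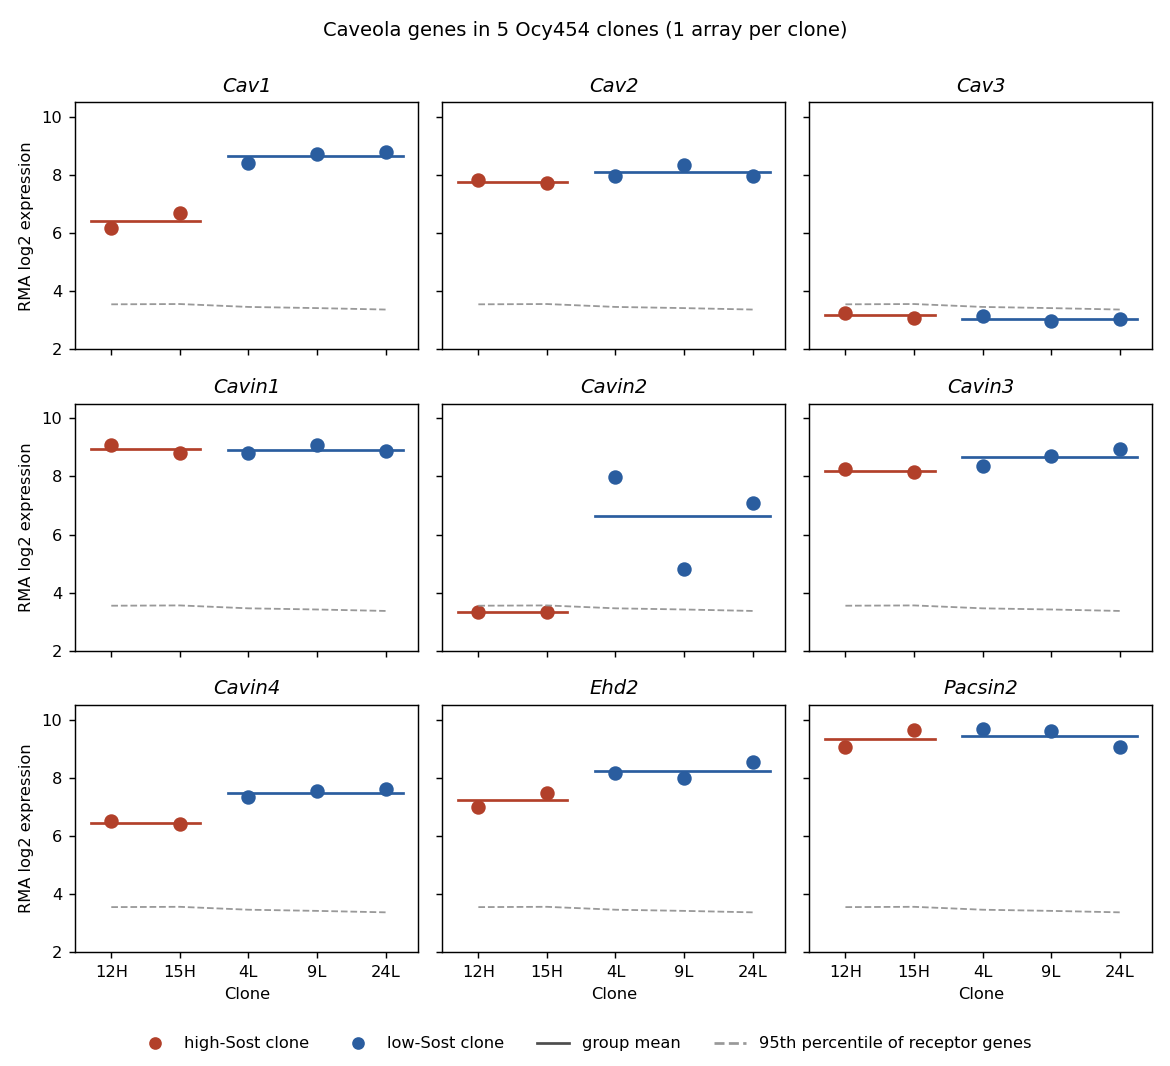
RMA log2 expression (vertical axis) of the 9 caveola genes in each clone (horizontal axis), 1 point per array, with group means as lines and the 95th percentile of receptor genes dashed. In Cav1 and Cavin4 the groups lie farther apart than the clones within them, in Ehd2 the gap of 0.51 is close to the spread within groups, Cavin2 spans 3.33 to 7.97, and Cav3 lies under the dashed line in all 5 clones.

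The stretches upstream of the annotated starts are shown for the 3 genes with the widest separation, for Cav2 as the direct neighbour of Cav1, and for Cavin1 as the coat gene whose groups overlapped. Each is the 250 bases before a RefSeq start site in GRCm38.p6, 5′ to 3′ on the strand of the gene, with motif matches in capitals. The locations are chr6:17306085-17306334 (plus strand) for Cav1, chr6:17280935-17281184 (plus) for Cav2, chr1:51288876-51289125 (plus) for Cavin2, chr4:48663264-48663513 (plus) for Cavin4 and chr11:100970618-100970867 (minus) for Cavin1.
Cav1: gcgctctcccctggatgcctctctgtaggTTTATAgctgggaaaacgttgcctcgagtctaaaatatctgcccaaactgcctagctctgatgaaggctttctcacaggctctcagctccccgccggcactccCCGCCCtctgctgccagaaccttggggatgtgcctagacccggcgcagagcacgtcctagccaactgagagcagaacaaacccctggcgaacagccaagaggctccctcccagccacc
Cav2: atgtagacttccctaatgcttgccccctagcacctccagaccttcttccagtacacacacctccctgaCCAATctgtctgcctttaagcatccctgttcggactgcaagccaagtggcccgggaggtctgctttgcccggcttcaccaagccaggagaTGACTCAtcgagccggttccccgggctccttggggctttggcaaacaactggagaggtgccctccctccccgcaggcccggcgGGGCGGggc
Cavin2: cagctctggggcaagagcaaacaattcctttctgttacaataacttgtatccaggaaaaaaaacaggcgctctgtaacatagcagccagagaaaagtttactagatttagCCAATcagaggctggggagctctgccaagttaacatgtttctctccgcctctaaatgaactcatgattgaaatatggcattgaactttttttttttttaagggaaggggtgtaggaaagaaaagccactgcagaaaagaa
Cavin4: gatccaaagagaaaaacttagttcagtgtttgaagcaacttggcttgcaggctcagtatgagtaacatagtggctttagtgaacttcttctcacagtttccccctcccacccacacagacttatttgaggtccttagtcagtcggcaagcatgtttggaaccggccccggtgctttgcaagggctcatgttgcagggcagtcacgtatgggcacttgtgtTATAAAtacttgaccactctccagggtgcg
Cavin1: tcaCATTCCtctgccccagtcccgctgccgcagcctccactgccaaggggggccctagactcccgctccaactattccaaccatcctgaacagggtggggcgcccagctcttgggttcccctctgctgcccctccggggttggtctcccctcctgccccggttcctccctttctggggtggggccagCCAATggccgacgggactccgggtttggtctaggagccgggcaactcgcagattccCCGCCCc
The table held windows for 8 of the 9 genes. It gave 2 starts for Cav1 and 2 for Cavin1, of which the first in the table is shown, and which start the clones use was not measured.

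Both strands were searched. The TATA box TATAAA lay 30 bases before the start of Cavin4 and, on the minus strand, 221 bases before that of Cav1, and 12.4% of all 32851 windows of this length hold it. Among the 5 stretches shown, the CCAAT box was present at Cav2, Cavin2 and Cavin1 (33.8% of all windows). The GC box GGGCGG was present at Cav1, Cav2 and Cavin1 (32.7%), but not in the windows of Cavin2 and Cavin4. The AP-1 type motif TGANTCA was matched at Cav2 and in 1 of 3 windows of Pacsin2 (6.75%), and the TEAD type motif CATTCC at Cavin1 (12.6%). The E-box CANNTG, found in 66.2% of all windows and left in lower case, was matched at Cav1, Cav2 and Cavin4. No window of the family held a CArG box, the SRF motif found in 1.47% of all windows. In base content Cavin2 had 40.4% G and C and Cavin4 48.8%, against 59.6% for Cav1, 62.0% for Cav2 and 67.6% for Cavin1. No searched motif was common to the windows of Cav1, Cavin2 and Cavin4, though Cav1 and Cavin4 both held TATAAA and an E-box. A match or its absence is a description of these letters only.

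Among the caveolins, the wide difference was that of Cav1. Cav1 (Entrez gene 12389, chromosome 6), the main structural caveolin outside striated muscle, read 6.16 in 12H and 6.69 in 15H, whereas clones 4L, 9L and 24L had 8.41, 8.73 and 8.79. The lowest low-Sost clone lay 1.72 above the highest high-Sost clone, a gap far wider than the residual SD of 0.27. High-Sost clones averaged 6.42 ± 0.37 (SD, n = 2) and low-Sost clones 8.64 ± 0.21 (SD, n = 3). The difference was -2.22 (SE 0.22), or 4.65-fold. Leaving out any 1 clone gave differences from -2.48 to -1.96. Only 2.04% of the 7807 genes with a mean of 6 or more had a wider range over the 5 clones. In the order of clones, 24L and 9L differed by 0.06, less than the residual SD, and 12H and 15H by 0.52, more than it.

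Cav2 (Entrez gene 12390), which forms mixed oligomers with caveolin-1, read 7.82 in 12H and 7.72 in 15H, whereas clones 4L, 9L and 24L had 7.95, 8.36 and 7.95. The groups did not overlap, yet 12H and the low-Sost clone 24L stood 0.14 apart, less than the residual SD of 0.20. The difference was -0.32 (SE 0.16) or 1.25-fold, and -0.18 without 9L, the highest clone. Cav2 is the nearest measured gene before Cav1 on chromosome 6, yet its difference was far smaller.

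Cav3 (Entrez gene 12391), the muscle caveolin, read between 2.97 in 9L and 3.26 in 12H and stayed under the receptor mark in all 5 clones. Its difference was 0.11 (SE 0.09), and at that level a difference was not detectable over dim signal.

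Among the cavins the pattern split into 3. Cavin1 (Entrez gene 19285, chromosome 11), the core cavin without which caveolae do not form, read 9.09 in 12H and 8.79 in 15H, with 8.81, 9.07 and 8.87 in 4L, 9L and 24L. The highest and the lowest value both belonged to high-Sost clones, and the difference was 0.03 (SE 0.14). Its sign depended on the clone left out, from -0.12 without 12H to 0.18 without 15H. Of the genes with a mean of 6 or more, 85.1% had a wider range than its 0.30.

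Cavin2 (Entrez gene 20324, chromosome 1), a phosphatidylserine-binding cavin that shapes caveolae in some tissues, read 3.35 in 12H and 3.33 in 15H, whereas clones 4L, 9L and 24L had 7.97, 4.82 and 7.07. Both high-Sost clones lay under the receptor mark, and 9L stood between them and the other low-Sost clones. The mean was 3.34 ± 0.02 (SD, n = 2) in the high-Sost group but 6.62 ± 1.62 (SD, n = 3) in the low-Sost group, and the difference was -3.28 (SE 1.09). Because the high-Sost clones were dim, the fold between group means is a bound. With both high-Sost clones set at the receptor mark, the low-Sost mean was at least 8.36-fold higher, though 9L lay below that mean. The log2 difference was -4.18 without 9L and -2.60 without 4L. Low-Sost clones alone spanned 3.15, or 8.88-fold. Only 0.397% of genes with a mean of 6 or more had a wider range, though Cavin2 itself averaged under 6 and is not among them.

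Cavin3 (Entrez gene 109042, chromosome 7), a cavin linked to signalling and vesicle traffic, read 8.25 in 12H and 8.15 in 15H, whereas clones 4L, 9L and 24L had 8.37, 8.69 and 8.95. The groups did not overlap, but 12H and 4L were 0.12 apart, less than the residual SD of 0.24. The difference was -0.47 (SE 0.20), from -0.63 without 4L to -0.33 without 24L.

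Cavin4 (Entrez gene 68016, chromosome 4), known as the muscle cavin, read 6.50 in 12H and 6.42 in 15H, whereas clones 4L, 9L and 24L had 7.33, 7.55 and 7.61. All 5 clones exceeded the receptor mark, and the gap of 0.83 between 4L and 12H was wider than the residual SD of 0.12. Averages were 6.46 ± 0.05 (SD, n = 2) for the high-Sost and 7.49 ± 0.15 (SD, n = 3) for the low-Sost clones. The difference was -1.03 (SE 0.10), or 2.05-fold. Without 24L it was 1.97-fold, just under the 2-fold limit.

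Of 11 skeletal muscle markers measured, 7 exceeded the receptor mark in some clone and 0 averaged 6 or more. Their mean level lay from 4.04 to 4.08 in high-Sost and from 3.83 to 4.03 in low-Sost clones, and the brightest apart from Des were Tnnc2 (4.95 to 5.59), Acta1 (4.86 to 5.49), Myog (4.65 to 4.79) and Tnnt3 (4.48 to 4.74). Ckm read 3.04 in every clone, and Myod1 read 3.22 to 3.57. The muscle intermediate filament gene Des differed by 1.26 (SE 0.49, adjusted p = 0.737 in limma), opposite in direction to Cavin4, and by 0.91 without 4L. The upstream stretch of Cavin4, shown above, is the one with a TATA box close to its start.

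The 2 accessory genes differed from each other. Ehd2 (Entrez gene 259300, chromosome 7), an ATPase that holds caveolae at the cell surface by ringing the neck, read 6.99 in 12H and 7.49 in 15H, whereas clones 4L, 9L and 24L had 8.15, 8.00 and 8.53. The groups were 0.51 apart at their closest, against a residual SD of 0.30. The difference was -0.99 (SE 0.25), from -1.24 without 15H to -0.74 without 12H. Pacsin2 (Entrez gene 23970, chromosome 15), an F-BAR protein that bends the membrane at the neck, read 9.07 in 12H and 9.63 in 15H, whereas clones 4L, 9L and 24L had 9.68, 9.61 and 9.06. Here 12H paired with the low-Sost clone 24L, and 15H with 4L and 9L. The difference was -0.10 (SE 0.30) and ran from -0.38 without 15H to 0.17 without 12H.

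**Figure D2:**
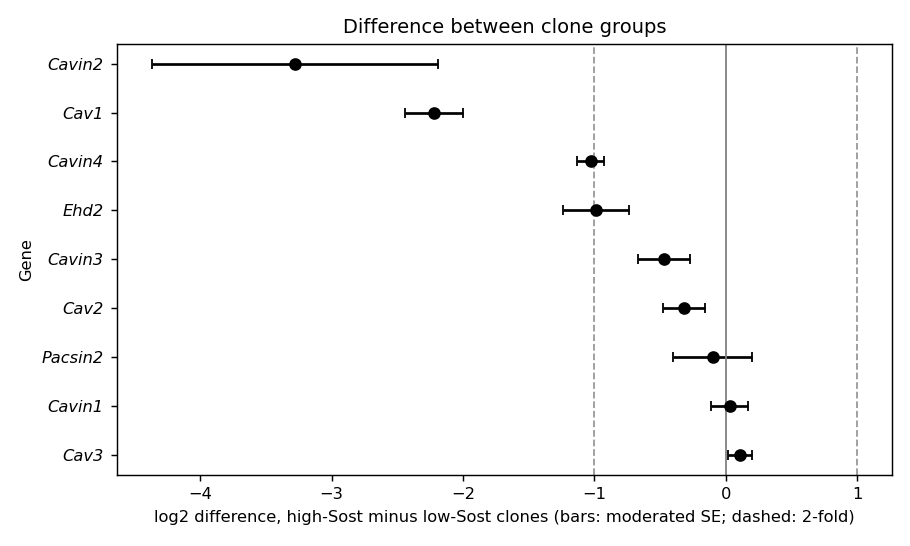
log2 difference of high-Sost minus low-Sost clones (horizontal axis) for each caveola gene (vertical axis), with the moderated SE as bars and dashed lines at 2-fold. Cavin2 has the widest difference (-3.28) and the widest bar (1.09), while Cavin1, Pacsin2 and Cav3 lie within 0.11 of 0.

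Over the 9 genes, 15H held the lowest value of 5 genes and 24L the highest of 4. Each of the 5 values of 15H lay within the residual SD of the next clone, as did those of 24L for Cav1 and Cavin4. Clone 12H was lowest by more than the residual SD for Cav1 and Ehd2. The mean of the 9 genes, each centred on its own mean, was -0.60 in 12H and -0.51 in 15H, whereas clones 4L, 9L and 24L had 0.44, 0.22 and 0.45. The lower place of 9L among the low-Sost clones came with its Cavin2 value.

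Genes beside the caveolin pair were read for the same pattern. Tes, a focal adhesion protein gene upstream of Cav2, read 5.90 in each high-Sost clone, whereas clones 4L, 9L and 24L had 7.35, 6.62 and 6.70 (difference -0.99, SE 0.27, adjusted p = 0.737 in limma). Met, the receptor of hepatocyte growth factor, which follows Cav1, read 4.81 in 12H and 5.16 in 15H, while 4L, 9L and 24L had 7.31, 5.84 and 5.71 (difference -1.30, SE 0.61, adjusted p = 0.737). Neither passed, and in both the low-Sost clone 4L was highest, unlike Cav1, for which 4L was the lowest of the low-Sost clones. Farther on, Capza2, an actin capping subunit (0.29, SE 0.23), and St7 (0.40, SE 0.27) overlapped between groups. Gm4876, a dim predicted gene between Tes and Cav2, differed by -0.35 (SE 0.15). From Tes to Met all 5 genes were thus lower in the high-Sost clones without overlap, by unequal amounts, against 7.75% of all named genes. Cav1 and Cav2 among them were picked on this contrast, and Gm4876 lay under the receptor mark in every clone. Nothing is therefore read from this count.

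**Figure D3:**
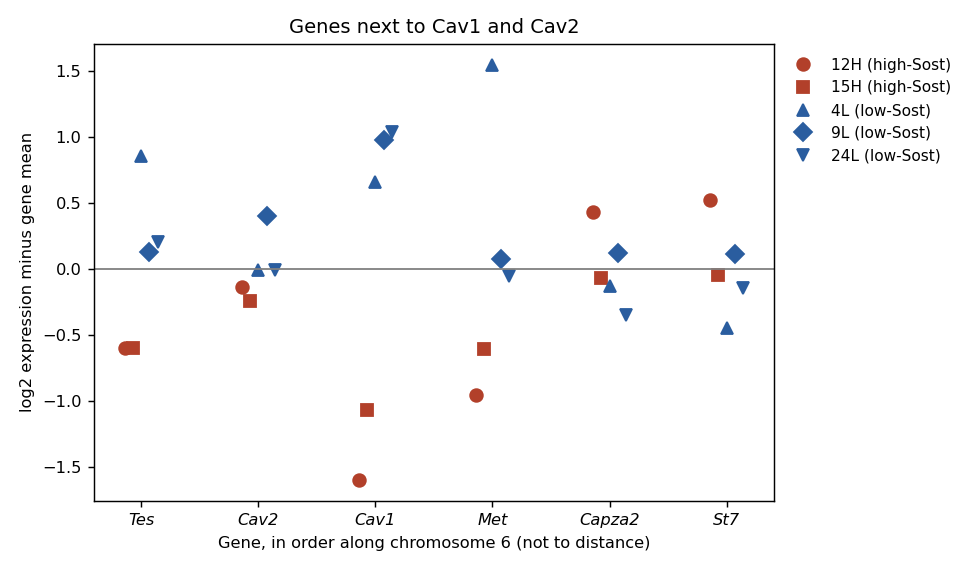
log2 expression minus the mean of the gene over 5 clones (vertical axis) for named genes in their order along chromosome 6 (horizontal axis, not to distance), 1 marker per clone, with the predicted gene between Tes and Cav2 left out. From Tes to Met both high-Sost clones lie below the low-Sost clones, most for Cav1, and at Capza2 and St7 clone 12H is the highest.

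Medians over the chromosomes of these genes were read beside them. For 375 other genes of chromosome 6 with a mean of 6 or more, the median deviation from the median of the other clones was taken. Relative to such genes of all autosomes and chromosome X, it was 0.36 in 12H, -0.15 in 15H and -0.17 in 24L. Clone 12H had the lowest Cav1. With the chromosome medians subtracted, a setting chosen after seeing the data, the Cav1 difference was -2.36 and that of Cav2 -0.47. For chromosome 4, which holds Cavin4, the medians ran from -0.13 to 0.08. Chromosome 1 stood at -0.31 in 4L, the clone with the highest Cavin2. Chromosome 15, which holds Pacsin2, stood at 0.29 in 4L, 0.27 in 9L, -0.36 in 12H, -0.12 in 15H and -0.05 in 24L. Pacsin2 was high in 4L and 9L and low in 12H, but also high in 15H and lowest in 24L. Subtracting it turned the Pacsin2 difference from -0.10 to 0.31. The neighbours of Pacsin2 were mixed. Ttll1, the next gene, had its lowest values in 12H (9.08) and 24L (9.17), as did Mcat (6.17 and 6.20). Arfgap3 and 1700001L05Rik were lowest in 12H and next lowest in 4L, and Bik hardly varied (4.43 to 4.48). A4galt was highest in 24L (7.02) and lower in the high-Sost clones without overlap (-1.79, SE 0.53). What part shifts of whole chromosomes have in these values was not tested.

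Around Cavin4 and Cavin2 the neighbours showed less. Tmeff1, just before Cavin4, overlapped between the groups (-0.63, SE 0.34), as did Msantd3 (-0.03, SE 0.34) and Tex10 (-0.11, SE 0.11), and the 3 genes after it averaged under 3. Next to Cavin2, Nabp1, a single-stranded DNA-binding protein gene, was lower in the high-Sost clones without overlap (-0.62, SE 0.17, adjusted p = 0.737 in limma), and Tmeff2 overlapped (-0.50, SE 0.45). The other 4 neighbours of Cavin2 averaged under 4.

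Likeness to a caveola gene was measured as the root mean square (RMS) difference between log2 profiles centred on their own means over the 5 clones, among genes with a mean of 6 or more. Predicted genes, Rik and accession-named entries and olfactory or vomeronasal receptors were passed over in naming the nearest genes. The ranks of family members below count them. Nearest to Cav1 were Ttyh3 (RMS 0.224), Fgf18 (0.284), Casp4 (0.294), Tpm2 (0.341) and Tuba1a (0.404), of 7806 genes compared. Ttyh3, which encodes a chloride channel family protein, read 6.13 in 12H, 7.21 in 15H and 8.91 to 9.33 in low-Sost clones. Within the family, Cavin4 ranked 44 and Ehd2 57 by likeness to Cav1, Cavin3 430, Cav2 930, Pacsin2 2867 and Cavin1 4179. Nearest to Cavin4 were Egr1 (0.093), Emc2 (0.116), Zdhhc15 (0.122), Dscc1 (0.148) and Sspn (0.154), the last a sarcospan gene of the dystrophin complex. Nearest to Cavin2 were Igfbp2 (0.320), Nrg1 (0.419), Vcam1 (0.551), Plk2 (0.751) and Mgp (0.808). Igfbp2, which binds insulin-like growth factors, was like Cavin2 highest in 4L (9.18), then 24L (8.43), 9L (6.84) and the high-Sost clones (4.44 and 4.76). The lists named for the 3 genes share no gene. These lists rest on 5 points each and describe likeness only.

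Proteins that work at the caveola neck or tie caveolae to the cytoskeleton mostly lay near 0, unlike Ehd2. Of 22 measured, 0 were at least 2-fold apart without overlap, and the median difference was -0.06, against -0.99 for Ehd2. In either direction 0 passed, as among all genes, so 0 passing sets neither this list nor a later one apart. Dnm3, a dynamin, read 6.32 in 4L and 4.76 in 24L, and was under the receptor mark in 12H, 15H and 9L. The count at least 2-fold lower was 1 without 4L (Ror1, a receptor also under the mark in both high-Sost clones) and 1 without 9L (Dnm3). With fewer clones non-overlap is met more easily, and the share of all genes was not counted there. The mean level of the list lay at 7.08 in both high-Sost clones and at 7.09 to 7.26 in the low-Sost clones. The EHD paralogs differed from Ehd2: Ehd1 by -0.05 (SE 0.13) and Ehd4 by -0.05 (SE 0.25) overlapped, and Ehd3 was 0.69 higher (SE 0.34, adjusted p = 0.737 in limma). Pacsin3 (-0.07, SE 0.05) and Dnm2, the dynamin that cuts vesicles (0.09, SE 0.15), overlapped too. Fyn, a Src family kinase, was 0.50 higher (SE 0.21, adjusted p = 0.737).

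Flotillins, stomatins and related raft proteins also lay near 0, with 0 of 14 passing, 0 at least 2-fold apart and a median of -0.12, which was -0.02 without 4L. Stom, which encodes stomatin (-0.35, SE 0.17), and Stoml2 (-0.34, SE 0.09) were lower without overlap (adjusted p = 0.737 for both). Clathrin coat genes, the other main route of coated uptake, had 0 of 21 passing, 0 at least 2-fold apart and a median of 0.03. The heavy chain gene Cltc differed by 0.10 (SE 0.09). The uncoating phosphatase gene Synj1 differed by 0.58 (SE 0.16, adjusted p = 0.737) and the dim Fcho1 by -0.13 (SE 0.06, adjusted p = 0.737).

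Receptors and enzymes reported to bind caveolin held genes that differed in each direction. Of 23 measured, 0 passed, and the median was 0.04. At least 2-fold apart without overlap, 2 were lower and 2 higher (0.983% and 0.867% of all genes). At any size, 8 were higher and 2 lower without overlap, against 8.26% and 7.75% of all genes. Egfr, the epidermal growth factor receptor, read 3.61 in 12H and 5.29 in 15H, whereas clones 4L, 9L and 24L had 6.48, 5.57 and 7.95 (-2.22, SE 0.99). Tgfbr2, the type II TGF-beta receptor, differed by -1.66 (SE 0.50). Kcnma1, a calcium-activated potassium channel, differed by 2.03 (SE 0.87), with adjusted p = 0.737 for these 3. Ptch1, the hedgehog receptor, read 8.13 and 8.35 against 6.44 to 6.54 (1.74, SE 0.08, adjusted p = 0.257), opposite to Cav1 and with little spread in either group. Nos3, endothelial nitric oxide synthase, read 4.13 to 4.16 in every clone.

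Lipid genes that supply the caveola membrane had 0 of 15 passing, 2 at least 2-fold higher without overlap (0.867% of all genes), 0 lower and a median of -0.19, which was -0.03 without 4L. The count of 2 became 1 without 4L and stayed 2 without 9L or without 24L, with no share of all genes counted in those settings. Sgms2, a sphingomyelin synthase of the plasma membrane, read 10.59 in 12H and 9.63 in 15H, whereas clones 4L, 9L and 24L had 8.46, 8.01 and 7.49 (2.13, SE 0.46, adjusted p = 0.7 in limma). B4galnt1, a ganglioside synthase, differed by 1.19 (SE 0.44, adjusted p = 0.737), and by 0.84 without 4L.

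Genes of actomyosin tension and SRF or YAP target genes had the lowest median of the 6 related lists. Of 22 measured, 0 passed, 6 were at least 2-fold lower and 0 at least 2-fold higher without overlap, against 0.983% and 0.867% of all genes. At any size, 11 were lower and 1 higher without overlap, against 7.75% and 8.26%. Of the 22, 20 had a mean of 6 or more, and among all genes that bright 1.59% were at least 2-fold lower and 13.5% lower at any size. The count at least 2-fold lower was 7 without 4L, 9 without 9L and 6 without 24L. Fewer clones make non-overlap easier to meet, and the share of all genes in those settings was not counted. The median was -0.70 and was -0.52 without 24L. Cnn1, a smooth muscle calponin, read 3.44 and 3.51 in the high-Sost clones, whereas clones 4L, 9L and 24L had 5.12, 7.46 and 6.51. Both high-Sost values lay under the receptor mark, so the low-Sost mean was at least 6.99-fold higher, with a measured difference of -2.89 (SE 0.79). Tpm2, a tropomyosin also among the genes most like Cav1, differed by -1.99 (SE 0.54), Ankrd1 by -1.84 (SE 1.03, and -1.04 without 4L) and Tagln by -1.78 (SE 0.72), each with adjusted p = 0.737 in limma. The regulators went in both directions. Mrtfa, an SRF coactivator, differed by -0.76 (SE 0.21) and Lats2 by 0.62 (SE 0.21), each without overlap. Mrtfb (0.26, SE 0.14), Srf (-0.15, SE 0.24), Yap1 (0.24, SE 0.12), Tead1 (0.00, SE 0.03) and Wwtr1, which encodes TAZ (-0.10, SE 0.16), overlapped.

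**Figure D4:**
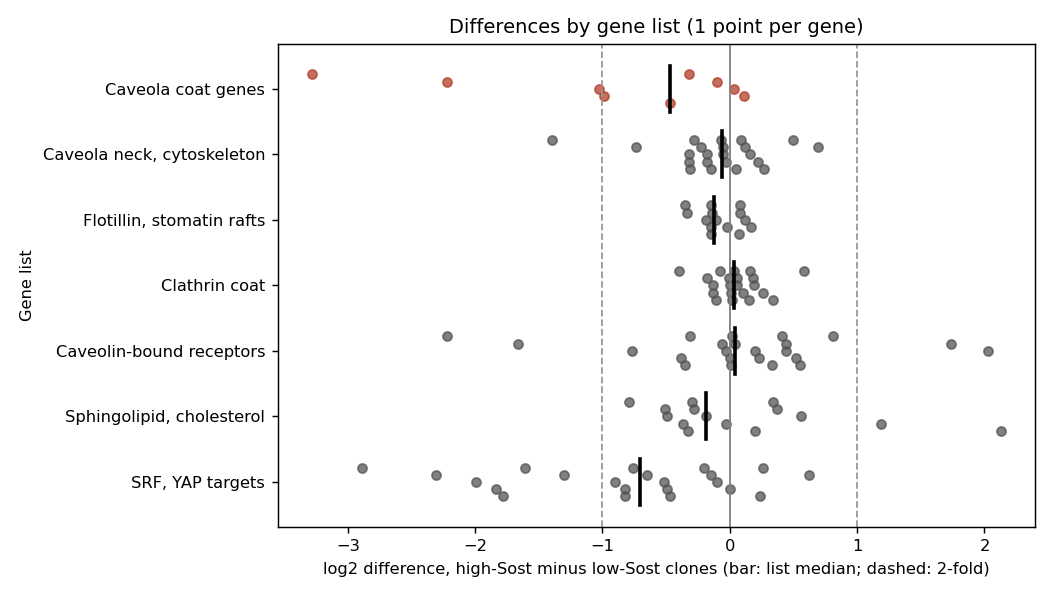
log2 difference of high-Sost minus low-Sost clones (horizontal axis) for every measured gene of 7 lists (vertical axis), with list medians as bars and dashed lines at 2-fold. The caveola coat genes reach -3.28 and have a median of -0.47, clathrin coat genes centre on 0.03, and SRF and YAP targets on -0.70.

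Markers of other cell types rich in caveolae gave the following values. All 8 endothelial markers averaged under 6, with mean levels of 3.05 to 3.10 in high-Sost and 3.06 to 3.15 in low-Sost clones, and 3 of the 8 exceeded the receptor mark in some clone. Plvap exceeded it in every clone (4.34 to 5.19), Kdr in 4L (3.56) and Vwf by a small margin in 24L (3.41), whereas Cdh5 and Pecam1 read under 3.05 throughout. The 6 adipocyte markers measured also averaged under 6 (3.21 to 3.27 and 3.02 to 3.38), and 3 of the 6 exceeded the receptor mark in some clone. Pparg (4.26 to 5.49) and Plin1 (4.08 to 4.19) exceeded it in every clone, while Adipoq read 1.89 to 2.42. Smooth muscle markers had 2 of 8 at least 2-fold lower without overlap (0.983% of all genes), Cnn1 and Acta2 (-1.30, SE 0.41, adjusted p = 0.737 in limma), and mean levels of 5.13 to 5.18 against 5.15 to 5.97. Both genes are also on the SRF and YAP list and were already counted there. Among the markers not shared, Synpo2 was lower without overlap (-0.24, SE 0.08). Mylk (0.81, SE 0.68), Smtn (-0.32, SE 0.30) and Lmod1 (-0.06, SE 0.36) overlapped. Myh11, a defining smooth muscle gene, read 4.24 to 4.44 in every clone. Fibroblast and tendon markers had 1 of 8 at least 2-fold higher (0.867% of all genes), Pdgfra (9.21 and 8.46 in the high-Sost clones, 3.79 to 7.60 in the others), and 1 lower (0.983%), Scx (-1.02, SE 0.31, and -0.82 without 4L), with adjusted p = 0.737 for both and mean levels of 4.30 to 4.61 against 4.03 to 4.54. Of 6 osteoblast markers, 4 were at least 2-fold higher in the high-Sost clones (0.867% of all genes), opposite to Cav1, and 0 passed. These were Ibsp, Sp7, Alpl and Bglap, and without 4L the count was 3, with Alpl at 0.81 (SE 0.29) in place of 2.29 (SE 1.73). Their part in the caveola gene values was not tested.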

How the data were processed

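RNA of 5 clones was measured on 1 Affymetrix array each. The deposited values are log2 expression per probe set, and RMA, affy 1.36.1 and R 2.15.1 are listed, with no role or order, in the submitters' processing notes. RMA brings arrays to 1 distribution, which removes shifts shared by most genes. The chip definition is not given in the sources used here. Gene names came from the platform annotation, matched by Entrez number to a RefSeq table of GRCm38.p6 (23185 matched, 2021 unnamed left out).

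All named genes were fitted with limma 3.58.1 in R 4.3.3 (lmFit, eBayes, Benjamini-Hochberg adjustment), 2 against 3 clones, and the step was tested on simulated data. The number of arrays limits the precision. The p-values set a group difference against the spread within groups, which holds clone, culture and array differences together. Promoter windows came from RefSeq, cut to the 250 bases before each start so as to hold none of the transcript from that start. Window 2 of Cav1 and of Cavin1 and windows 2 and 3 of Pacsin2 reach past another start of the same gene. The windows of Cav2 and Cavin1 were added for comparison. No protein sequence was used here.

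The genes and lists were chosen with earlier results of these data known. Of 179 related and marker entries, 170 were measured, and the other 9 are not analysed here. Named from each related list were up to 4 genes by size among those at least 2-fold apart without overlap, or else the 2 with the smallest p. Marker lists are given by counts, ranges and single genes. Outside this rule, Dnm2, Dnm3, Ror1, Ehd1, Ehd4, Pacsin3, Cltc and Nos3 were chosen with their values in view. So were Srf, Mrtfa, Mrtfb, Yap1, Wwtr1, Tead1, Lats2, the neighbours of Pacsin2 and the single markers. Alternatives were a filter on dim genes, other scaling, variance models, thresholds and leaving out each clone.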

Additional observations from a re-analysis of the deposited data

How the results depend on the processing

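Of 81 alternative values for the differences of the caveola genes, 79 lay within the residual SD of the reported value. The exceptions were Cav3 (-0.03) and Pacsin2 (0.31) with chromosome medians subtracted. Part of this count was fixed in advance, so it is no test of robustness. The filter on dim genes cannot change the difference of a kept gene. Leaving out 1 low-Sost clone cannot move a difference beyond the residual SD. The count of caveola genes at least 2-fold lower without overlap was 2 to 4 with a low-Sost clone left out and 4 with a 1.5-fold limit. It was 3 in the other settings, and the count higher was 0 throughout. With a clone left out, non-overlap is met more easily, and the share of all genes was not counted. Genes called by limma numbered 2 higher with arrays shifted to 1 median, and 2 higher and 1 lower at an adjusted p under 0.1, against 0 in each other setting. With a clone left out, list medians ran from -0.14 to -0.04 for the caveola neck, -0.15 to -0.02 for flotillins and stomatins, 0.00 to 0.28 for caveolin-bound receptors, 0.00 to 0.05 for the clathrin coat, -0.75 to -0.52 for SRF and YAP targets and -0.29 to -0.03 for lipid genes. Without the dimmest 30% of genes the receptor list had 0.12 and the clathrin list 0.05, where fewer genes enter the median. Other causes were not tested. With 12H or 15H left out, the spread of the lone high-Sost clone is taken from the low-Sost group. No paired analysis was possible because the groups share no replicate numbers. Cav3 lies under the dim mark, as do Cavin2 and Cnn1 in high-Sost clones and Dnm3 in 3 clones, which limits their differences.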
